A study of Rattus norvegicus with 20 samples.

Results

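The rat ovary holds chemokines, interleukins and their receptors, taken here as the genes whose symbol starts with Ccl, Cxcl, Ccr, Cxcr or Il followed by a digit. Of 117 such symbols with a probe, 76 were well above background on at least 4 of 20 arrays and are described by their brightest probe, out of 12452 symbols that passed the same filter. They were 25 chemokine ligands, 10 chemokine receptors, 18 interleukins with their antagonists and binding proteins, and 23 interleukin receptor chains, Il6st included. Each array held RNA from the whole ovary of 1 female Sprague-Dawley rat killed at 46 days of age. Her dam had been fed brominated flame retardants from at least a week before mating until weaning at 21 days. By share the mixture held DE-71 at 52.1%, BDE-209 at 44.2%, hexabromocyclododecane at 3.3% and DE-79 at 0.4%, all but the third being polybrominated diphenyl ethers. Control dams received a diet with 0 mg/kg of the mixture (5 daughters). The others received 0.75, 250 or 750 mg per kg of diet, meant to deliver 0.06 (4 daughters), 20 (5) or 60 (6) mg per kg body weight per day. Per the design text the daughters came from independent litters, and the submitters removed 1 further animal at 0.06 mg/kg/day as an outlier. The daughters were exposed through their dams, and feeding of the mixture had ended at weaning.

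Chemokines are small secreted proteins, sorted into CC and CXC families by the spacing of their first cysteines, that bind receptors coupled to G proteins and draw leukocytes along a gradient. Interleukins signal through receptors built from several chains, some shared between cytokines, such as the common gamma chain Il2rg and the IL-6 family subunit Il6st. In the ovary, macrophages and lymphocytes enter follicles and corpora lutea around ovulation and luteal regression, and granulosa, theca and luteal cells make some of these ligands themselves. Since the RNA came from whole ovaries, fewer cells of a type and less RNA per cell cannot be told apart. Markers of ovarian cells were present: 14 of 15 granulosa, theca, luteal and oocyte genes were measured. That list had a median log2 difference of -0.11, -0.35 and +0.04 at the 3 doses in rising order. At 20 mg/kg/day 4 of its 14 genes (28.6%) were above the control mean, against 57.9% of all probes. A list of oviduct epithelium markers was high in control replicates 2 (1.98) and 4 (2.10) and in 20 mg/kg/day replicate 5 (2.06), as log2 deviations, against -1.04 to 1.21 on the other arrays. The part of either list in the results was not tested.

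Levels are given as the log2 ratio of the processed signal to the 75th percentile of its array, so 0 marks a signal at that percentile, and they compare arrays for 1 gene, not genes with each other. That percentile lay between 1158 and 1737 in signal units, and between 74.8% and 83.4% of an array's spots were well above background. The arrays sat on 3 slides of 6 or 7, each with all 4 groups. Differences within a slide rest on few animals. Control replicate 3 was the only control on slide 2. The only array at 20 mg/kg/day was replicate 1 on slide 1 and replicate 2 on slide 2. At 60 mg/kg/day replicate 6 was the only array on slide 3. At 0.06 mg/kg/day the only array was replicate 3 on slide 2 and replicate 5 on slide 3. Dose differences were tested with limma on 23258 probes, with Benjamini-Hochberg adjustment over all of them. A list of 17 measured macrophage and monocyte markers, none of them called, had median log2 differences of +0.26, +0.42 and +0.53 at the 3 doses in rising order, and its values are given beside the genes that moved with it.

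The regulatory sequences of 6 genes are shown because 4 of them (Il18, Ccl6, Ccl7 and Ccl12) followed the macrophage markers between ovaries, and because the other two (Ccl19 and Ccl21) lie close together on chromosome 5 and their levels ran in opposite directions. Each is the 250 bases before the transcription start, from RefSeq on GRCr8, written 5′ to 3′ on the gene's strand. Of the 76 genes, 56 had a promoter in the table. Capitals mark matches, on either strand, to TATAAA (the TATA box), GAGGAA (the core of a site of the myeloid factor PU.1), TGANTCA (AP-1), the outer frame of an NF-kB site (GGG, any 5 bases, CC) or the frame of an interferon response element (GAAA, any 2 bases, GAAA). Adjacent or overlapping matches run together.

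Il18 (chr8:59801822-59802071, plus strand): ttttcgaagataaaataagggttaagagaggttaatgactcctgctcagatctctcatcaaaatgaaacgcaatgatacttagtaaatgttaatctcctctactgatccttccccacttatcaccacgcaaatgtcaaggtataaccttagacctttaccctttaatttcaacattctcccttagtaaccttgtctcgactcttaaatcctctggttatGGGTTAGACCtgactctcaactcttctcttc
Ccl6 (chr10:68883367-68883616, minus strand): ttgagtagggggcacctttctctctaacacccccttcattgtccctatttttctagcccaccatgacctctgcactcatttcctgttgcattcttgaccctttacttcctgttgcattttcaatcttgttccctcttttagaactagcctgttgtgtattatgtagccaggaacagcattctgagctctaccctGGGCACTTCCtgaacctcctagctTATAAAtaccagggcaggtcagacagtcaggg
Ccl7 (chr10:67513845-67514094, plus strand): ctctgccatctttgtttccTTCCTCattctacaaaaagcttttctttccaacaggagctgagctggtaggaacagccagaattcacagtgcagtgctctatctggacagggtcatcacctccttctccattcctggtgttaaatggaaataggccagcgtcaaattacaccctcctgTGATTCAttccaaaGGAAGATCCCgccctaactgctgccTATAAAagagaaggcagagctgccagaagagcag
Ccl12 (chr10:67567626-67567875, plus strand): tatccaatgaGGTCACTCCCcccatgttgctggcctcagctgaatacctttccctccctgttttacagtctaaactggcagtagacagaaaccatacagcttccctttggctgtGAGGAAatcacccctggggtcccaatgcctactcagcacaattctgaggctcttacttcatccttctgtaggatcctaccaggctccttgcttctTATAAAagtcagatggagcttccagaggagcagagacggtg
Ccl19 (chr5:61761165-61761414, minus strand): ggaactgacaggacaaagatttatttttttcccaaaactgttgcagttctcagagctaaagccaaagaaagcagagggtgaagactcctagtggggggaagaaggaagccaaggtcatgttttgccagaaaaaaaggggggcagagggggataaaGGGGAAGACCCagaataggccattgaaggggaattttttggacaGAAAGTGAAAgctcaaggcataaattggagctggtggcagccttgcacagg
Ccl21 (chr5:61777516-61777765, minus strand): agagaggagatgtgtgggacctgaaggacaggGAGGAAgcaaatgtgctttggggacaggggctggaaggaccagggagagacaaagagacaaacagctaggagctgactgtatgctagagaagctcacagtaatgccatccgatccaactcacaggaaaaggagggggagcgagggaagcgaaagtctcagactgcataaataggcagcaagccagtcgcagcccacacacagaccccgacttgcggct

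The 3 CC chemokine genes on chromosome 10 each had a TATAAA whose first base lay 32 (Ccl6), 34 (Ccl7) or 41 (Ccl12) bases before the start, and Il18 had none in this window. TATAAA was found in 12.9% of 33469 rat promoters of the same length and in 15 of the 56 promoters of this group (26.8%). The NF-kB frame was common, at 42.3% of all promoters, and stood in all 6 shown but that of Ccl21. GAGGAA was present in Ccl7, Ccl12 and Ccl21 (23.3% of all promoters), the AP-1 letters only in Ccl7 among the 6 (6.34% of all), and the interferon frame only in Ccl19 among them (3.41% of all). A match of letters describes the window and shows no binding.

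At this age 60 of the 76 genes were well above background on all 20 arrays. The filter was passed most narrowly by Il13, the type 2 cytokine, at 5 arrays, the IL-20 receptor chain Il20ra at 6, and Il12rb1 and Il36b at 7. It was missed most narrowly by Cxcl11, Cxcr1 and Il17a, at 3 arrays. Of the 41 symbols that did not pass, 27 were above background on 0 arrays. These included the inflammatory and lymphocyte cytokines Il6, Il1a, Il2 and Il4, and the lymphocyte homing receptors Cxcr5 and Ccr4. Il10, the anti-inflammatory cytokine, and Il7, the lymphocyte survival factor, were above background on 1 array each. A probe not above background gives only an upper limit set by the array.

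12 genes had a mean level above the array's 75th percentile, which places probe signals and does not rank genes by amount of RNA. They were the chemokines Ccl24, Cxcl14, Ccl21, Cxcl12 and Cxcl16, the interleukins Il18 and Il34, and the receptor chains Il17ra, Il2rg, Il6st, Il10rb and Il17re. Ccl24, an eosinophil attractant, ran from 3.04 to 3.50 over the 20 arrays and Il2rg, the common gamma chain, from 1.21 to 1.89. Il3ra, the IL-3 receptor chain, had the smallest spread within dose groups (SD 0.13), and the median over the 76 was 0.42. The 5 widest spreads within groups belonged to Il1rn (the IL-1 receptor antagonist, SD 1.43), Il12rb1 (1.34), Ccl20 (1.31), Il2ra (1.16) and Il1rl1 (the IL-33 receptor, 1.14). Il12rb1 and Il2ra were above background on only 7 and 10 arrays, while Il1rn, Ccl20 and Il1rl1 were above it on all 20.

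No gene of the group was called at any dose. At an adjusted limma p under 0.05, the count was 0 of 76 at each of the 3 doses, with 0% of all probes called. The lowest adjusted p among the 76 by limma was 1.00 at 0.06, 0.929 at 20 and 0.782 at 60. At an unadjusted limma p under 0.05 the group had 1, 3 and 7 genes, or 1.32%, 3.95% and 9.21%, against 3.05%, 4.58% and 6.29% of all probes. By direction these were 1 higher (1.43% of all probes) and 0 lower (1.62%) at 0.06 mg/kg/day, 2 higher (2.73%) and 1 lower (1.85%) at 20, and 4 higher (2.81%) and 3 lower (3.48%) at 60. Over the order of the doses 7 genes had an unadjusted p under 0.05 (9.21%, against 5.75% of all probes), 4 with a slope above 0 (3.02% of all probes) and 3 below 0 (2.73%), and 0 were called. In the joint test of the 3 doses 5 did (6.58%, against 3.17%), with 0 called. With slide as a block, the unadjusted counts were 3, 4 and 7, against 4.17%, 6.14% and 5.75% of all probes, and again 0 were called. Il36b, which passed the filter on low values through its arrays at 60 mg/kg/day, is among the 7 at 60, the 7 over dose order and the 5 of the joint test, which are 6, 6 and 4 without it. The median log2 difference of the 76 genes was +0.01, +0.08 and -0.06, against -0.03, +0.03 and -0.04 over all probes. The genes described next by dose are those of smallest unadjusted p, and none passed.

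**Figure D1:**
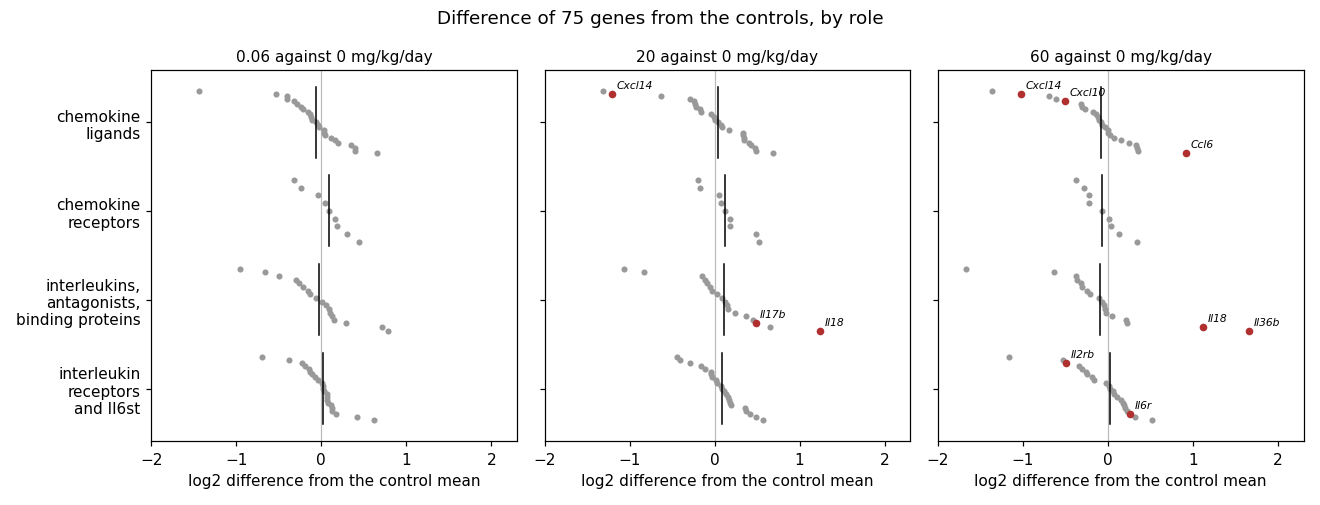
Log2 difference of 75 of the 76 genes from the control mean (horizontal axis) at each dose, by role. Each point is 1 gene, the black bar is the median of the genes drawn for its role, and red named points have an unadjusted limma p under 0.05 (3 genes at 20 and 7 at 60 mg/kg/day); the medians of the roles lie close to 0 and the named genes lie on both sides. Il36b passed the filter through its arrays at 60 mg/kg/day.

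Chemokine ligands were split at every dose. Of 25, 10 were above the control mean at 0.06 mg/kg/day, 13 at 20 and 10 at 60, that is 40%, 52% and 40%, where 43.6%, 57.9% and 39.7% of all probes were. The CC chemokine Ccl6, made by macrophages and other myeloid cells, had the smallest p of the named genes at 60 mg/kg/day. Its control arrays read -1.42, -1.17, -1.07, -1.57 and -2.11. At 60 mg/kg/day it ran from -1.32 to -0.02 with a median of -0.53, and 5 of the 6 arrays were above every control. The difference was +0.91 ± 0.27 (SE; n = 6 and 5; 1.88-fold; limma adjusted p = 0.782). Within slides 1, 2 and 3 it was +0.35, +0.69 and +1.56. At 20 mg/kg/day Ccl6 read -0.39, -0.90, -0.96, -1.46 and -1.24, at +0.48 ± 0.29, and at 0.06 it read -1.44, -1.72, -0.22 and -0.91. These groups overlapped the controls. Without control replicate 5 the difference at 20 was +0.32.

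Cxcl14, a chemokine of epithelia and stroma, ran the other way. The controls read 4.92, 3.76, 3.57, 2.87 and 3.23. At 20 mg/kg/day the arrays read 2.34, 2.32, 2.00, 3.44 and 2.21, so 4 of 5 were below every control. At 60 it ran from 1.88 to 3.17 with a median of 2.82. The differences were -1.21 ± 0.38 and -1.02 ± 0.36, or 2.31-fold and 2.03-fold lower, with unadjusted limma p of 0.0049 and 0.0112 and adjusted p of 0.929 and 0.782. The control of highest value was replicate 1, and without it the differences were -0.90 and -0.71. All 3 slides gave values below 0 at both doses, from -1.86 to -0.63 at 60 mg/kg/day.

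Cxcl10, the interferon-induced ligand of Cxcr3, read -0.95, -1.22, -1.69, -1.83 and -1.24 in the controls and -1.97, -2.19, -1.99, -1.46, -1.76 and -1.97 at 60 mg/kg/day. The difference was -0.50 ± 0.22 (limma adjusted p = 0.782), and on slide 2 it was only -0.05. Its neighbour Cxcl9, also induced by interferon gamma, ran from -0.73 to -0.29 in the controls and from -0.89 to -0.40 at 60 mg/kg/day. Ccl22, which attracts T cells through Ccr4, was the only gene of the 76 whose arrays at 60 mg/kg/day all lay below every control array. They ran from -4.08 to -3.71 against controls of -3.69 to -3.24, a difference of -0.32 ± 0.16. With normexp background correction and quantile normalization it was -0.16. Ccl22 was also among the genes called between slides and highest on slide 3, which held 2 of the 5 controls and 1 of the 6 arrays at 60. With slide as a block the difference was -0.24. Among all probes 0.249% had that order.

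Ccl20, the ligand of Ccr6 on lymphocytes and dendritic cells, varied widely among the controls. The controls read -1.70, -5.24, -1.69, -3.18 and -4.31, and at 0.06 mg/kg/day the arrays read -4.81, -5.60, -3.95 and -4.31. Its differences of -1.45, -1.31 and -1.36 at the 3 doses had SEs of 0.83, 0.78 and 0.74. With normexp and quantile normalization the first 2 were -0.93 and -0.82. A second Ccl20 probe correlated with the first at r = 0.986. Cxcl13, which attracts B cells, was at +0.65 ± 0.31 at 0.06 mg/kg/day, with slides at +1.44, +0.59 and -0.52. Ccl9 and Ccl27 were at -0.40 ± 0.23 and -0.29 ± 0.17 there. Ccl9 was at -0.19 without control replicate 4, -0.64 without 0.06 mg/kg/day replicate 5 and -0.19 with normexp and quantile normalization. Ccl27 was at -0.17 without 0.06 mg/kg/day replicate 5.

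Cxcl12, which retains leukocytes and progenitors through Cxcr4, read 0.08, 0.79, 1.75, 0.85 and 1.58 in the controls. It was 0.77 or more on all arrays at 0.06 mg/kg/day and ran from 1.02 to 1.66 at 20 and from 0.87 to 1.63 at 60, so the lowest of all arrays was control replicate 1. Ccl2, the monocyte attractant, ran from -2.64 to -1.11 in the controls and from -1.94 to -0.85 at 60 mg/kg/day. Ccl5, made by T cells among others, ran from -0.88 to -0.27 and from -0.87 to -0.19 in those groups. Ccl21, the ligand of Ccr7 that guides cells into lymphatics, ran from 1.73 to 2.54 and from 1.64 to 2.83. In each of these the dose arrays overlapped the controls.

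**Figure D2:**
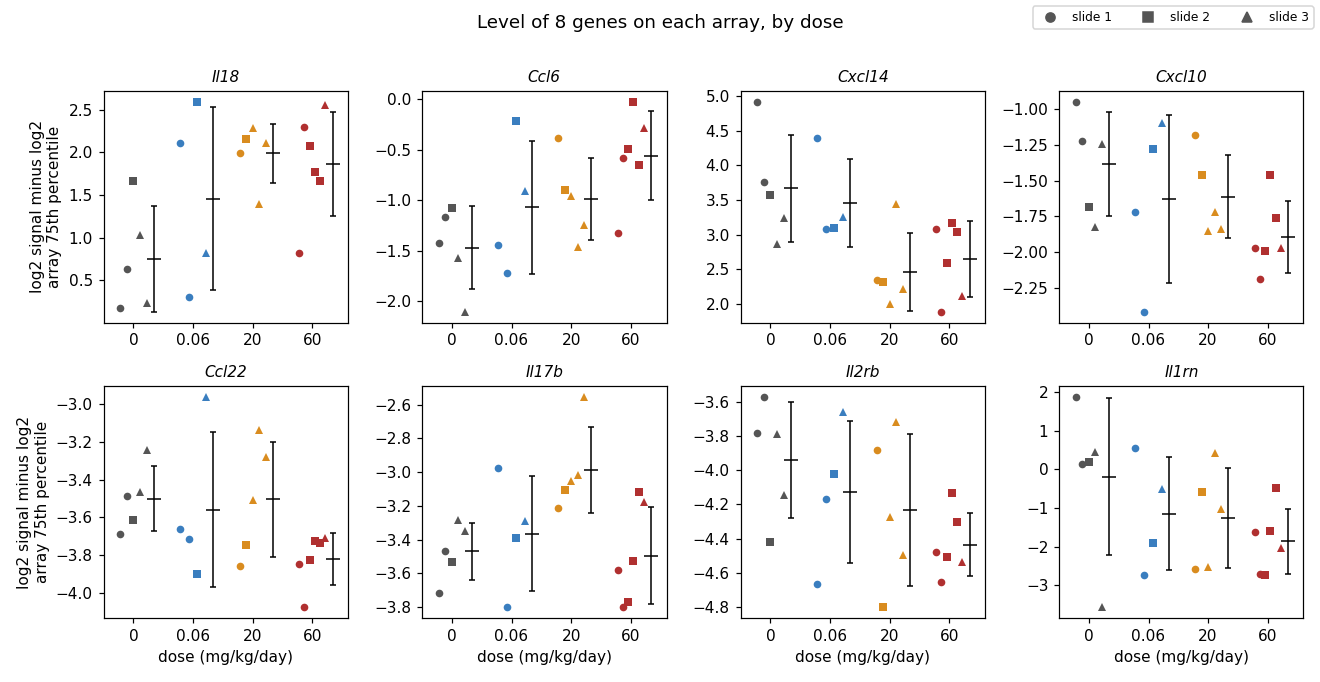
Level of 8 genes on each array (log2 signal minus log2 of the array's 75th percentile) by dose in mg/kg/day. Points are arrays, their shape gives the slide, and the bar beside each group is its mean ± SD. Il18 and Ccl6 stand higher and Cxcl14 lower at 20 and 60 than in most controls, the Il17b arrays at 20 all lie above the controls, and Il1rn spans from -3.57 to 1.87 in the controls alone.

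Of the 10 chemokine receptors, 7, 8 and 5 were above the control mean at the 3 doses. That is 70%, 80% and 50%, against 43.6%, 57.9% and 39.7% of all probes. Ccr2, the monocyte receptor of Ccl2, read -6.67, -6.45, -5.80, -6.51 and -6.52 in the controls and -5.53, -6.06, -6.06, -5.40 and -6.29 at 20 mg/kg/day. That difference was +0.52 ± 0.27, with -0.26 on slide 2, and it was +0.09 with normexp and quantile normalization. Cxcr4, the receptor of Cxcl12, read -0.05 in control replicate 1, and from -2.59 to -1.29 on the other 19 arrays. Ccr7 and Cxcr3, receptors of lymphocyte homing and of interferon-induced ligands, overlapped the controls at every dose.

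Among the 18 interleukins, antagonists and binding proteins, 9, 11 and 5 were above the control mean. That is 50%, 61.1% and 27.8%, against 43.6%, 57.9% and 39.7% of all probes. Il18, an IL-1 family cytokine that induces interferon gamma, had the largest positive difference at 20 mg/kg/day of all 76 genes. Its controls read 0.17, 0.62, 1.67, 1.03 and 0.23. At 20 mg/kg/day the arrays read 2.00, 2.16, 2.28, 1.40 and 2.11, and at 60 they ran from 0.82 to 2.55 with a median of 1.92. So 4 of 5 arrays at 20 lay above every control, and the fifth lay above 4 of the 5 controls. The differences were +1.24 ± 0.41 (2.37-fold) and +1.12 ± 0.39 (2.17-fold), with unadjusted limma p of 0.0066 and 0.0100 and adjusted p of 0.929 and 0.782. Slides 1 to 3 gave +1.60, +0.49 and +1.30 at 20 mg/kg/day and +1.16, +0.16 and +1.92 at 60. At 0.06 mg/kg/day Il18 read 2.11, 0.30, 2.59 and 0.82, a difference of +0.71 ± 0.43. It was +0.33 without replicate 3 of that group and +1.095 without replicate 2.

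The macrophage marker list moved with Ccl6 and Il18. Its mean, as log2 deviation from the mean of all arrays, ran from -0.58 to 0.20 in the controls, from -0.76 to 0.38 at 0.06 mg/kg/day, from -0.23 to 0.33 at 20 and from -0.29 to 0.57 at 60. At 60 mg/kg/day 16 of the 17 markers (94.1%) were above the control mean, where 39.7% of all probes were. At an unadjusted limma p under 0.05, 8 were higher, against 2.81% of all probes, with 0 lower and 0 called. The defining markers were well expressed: Cd68, Adgre1, Csf1r, Cd163 and C1qa were above background on all 20 arrays. At 60 mg/kg/day Cd68 was at +0.79 ± 0.32, Csf1r at +0.54 ± 0.22 and C1qa at +0.49 ± 0.22. The part of these markers in the Ccl6 and Il18 values was not tested.

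Il18bp, the secreted inhibitor of Il18, was at +0.29 ± 0.20, +0.37 ± 0.19 and +0.21 ± 0.18 by its brighter probe. A second probe gave +0.04, -0.15 and -0.18 and correlated with the first at only r = 0.10, so the direction for this gene depends on the probe. Without control replicate 1 the brighter probe gave +0.15 at 0.06 mg/kg/day and +0.24 at 20. Il17b, an IL-17 family cytokine, read -3.72, -3.47, -3.53, -3.28 and -3.35 in the controls and -3.21, -3.10, -3.05, -3.02 and -2.55 at 20 mg/kg/day. It was the only gene of the 76 whose arrays at 20 all lay above every control (0.361% of all probes). The difference was +0.48 ± 0.17 with slides at +0.38, +0.43 and +0.44, and at 60 mg/kg/day it was -0.03 ± 0.16.

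Il1rn had the largest mean difference of the named genes at 60 mg/kg/day and also the widest error, at -1.67 ± 0.82. Its controls read 1.87, 0.15, 0.18, 0.44 and -3.57, and at 60 it ran from -2.72 to -0.48 with a median of -1.82. So 4 of 5 controls lay above all 6 dose arrays and control replicate 5 lay below them all. Without that replicate the difference was -2.52, and without control replicate 1 it was -1.16. Il1b, the cytokine that Il1rn opposes, ran from -3.25 to -2.53 in the controls and from -3.40 to -2.98 at 60. Il33, an epithelial alarmin, ran from -4.10 to -2.83 and from -3.95 to -3.08. Il15, which sustains natural killer cells, and Il34, a ligand of the macrophage receptor Csf1r, overlapped the controls at every dose.

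Il36b, an IL-1 family ligand, is named after its values were seen. It was above background on 0 of 5 control arrays, 2 of 4 at 0.06 mg/kg/day, 0 of 5 at 20 and 5 of 6 at 60. It therefore passed the filter only through the group where it was high, and its level at 60 mg/kg/day is a description of what the filter chose, with no test. In the annotation the Il36b gene lies across other IL-1 family genes, Il1rn among them. The part of this position in the Il36b values was not tested.

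Of the 23 interleukin receptor chains, 14, 15 and 13 were above the control mean. That is 60.9%, 65.2% and 56.5%, against 43.6%, 57.9% and 39.7% of all probes. Il2rb, the receptor chain of Il2 and Il15 on natural killer and T cells, read -3.78, -3.57, -4.42, -3.79 and -4.14 in the controls. At 60 mg/kg/day it ran from -4.65 to -4.13 with a median of -4.49, a difference of -0.50 ± 0.20 (limma adjusted p = 0.782). Slide 2 gave +0.11, and with normexp and quantile normalization the difference was -0.25. The mean of the natural killer cell marker list ran from -0.28 to 0.81 in the controls and from -0.52 to 0.10 at 60. There 0 of its 5 measured genes were above the control mean, where 39.7% of all probes were. Among the 5 were the granule proteins Gzma at -0.58 ± 0.26 and Prf1 at -0.57 ± 0.24. The part of these cells in the Il2rb value was not tested. Il6r, the ligand-binding chain for Il6, was at +0.26 ± 0.12 at 60 mg/kg/day and at +0.17 without control replicate 2, while its partner Il6st ran from 1.21 to 1.67 in the controls and from 1.03 to 1.85 at 60. Il6 itself was not above background.

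Il1rap, the shared accessory chain of IL-1 receptors, was at +0.42 ± 0.29 at 0.06 mg/kg/day, and without control replicate 1 it was at +0.15. It was at +0.14 with normexp and quantile normalization and at +0.19 in the authors' log2 values. Il4r, the receptor chain for Il4 and Il13, and Il7r, the receptor of the lymphocyte survival factor Il7, overlapped the controls at every dose. Il2rg ran from 1.61 to 1.81 in the controls and from 1.21 to 1.68 at 60. Il1rl1 split the controls, with -1.21 and -1.58 in replicates 1 and 2 and from -5.53 to -4.20 in the other 3. All 15 arrays of the dose groups lay between those sets or overlapped the lower one, from -5.02 to -2.89.

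Other genes of these pathways were also without calls. An unadjusted limma p under 0.05 was reached by 3.05%, 4.58% and 6.29% of all probes at the 3 doses in rising order, and the counts below stand beside those shares. Of 10 measured further chemokines and chemokine receptors, such as Cx3cl1 and Ackr3, 0 were called at any dose and only Xcl1 had an unadjusted limma p under 0.05, at -0.43 ± 0.20 at 60 mg/kg/day. Of 23 measured further cytokines and receptors, 0 were called and 2, 2 and 3 had an unadjusted limma p under 0.05. That list includes Csf1r, which is also in the macrophage list, so the 2 lists overlap. Csf2ra, the GM-CSF receptor chain, was at +0.42, +0.23 and +0.27 at the 3 doses. Of 31 measured genes of signalling behind the receptors 0 were called, and 0, 2 and 4 had an unadjusted limma p under 0.05. The 4 at 60 mg/kg/day were Myd88 and Arrb2, at +0.43 and +0.37, and Stat3 and Nfkb2, at -0.49 and -0.45.

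Control replicate 1 held extreme values in several of these genes, though the rule for values far from their group, used further below, flagged none of its values. It had the highest Cxcl14, Cxcr4, Cxcl2 and Il1rn and the lowest Cxcl12 of the 20 arrays. Of the 76 genes 31 were below, and 9 above, every other control in it. The other controls held 6 to 15 genes below and 13 to 21 above all the rest. Over all 20 arrays control replicate 1 was lowest in 11 genes, as was 0.06 mg/kg/day replicate 2. It was highest in 6, against 8 for 0.06 mg/kg/day replicate 5. Cxcl2, a neutrophil attractant, was above background on only 13 of the 20 arrays. For Cxcl2 control replicate 1 read -4.08 against -6.97 to -5.83 in the other controls. For Cxcl1, a close relative, control replicate 1 read -2.95 against -4.79 to -3.31.

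Pairs of a ligand with its receptor or inhibitor, of receptor chains, or of related ligands were then compared across the 20 ovaries. Of 55 pairs, 30 had both genes measured, and 9 passed 0.05 in a permutation test after Benjamini-Hochberg adjustment over the 30. An r of 0.547 or more in size, the smallest that passed, was reached above 0 by 5.87% of all pairs of genes and below 0 by 4.50%. The arrays share slides, scaling and the cell makeup of each ovary. Ccl2 and Ccl7, neighbours on chromosome 10 that both act on Ccr2, had r = 0.807 (rho 0.690, adjusted permutation p = 0.00045), and 0.801, 0.622 and 0.717 within the 3 slides. Ccl3 and Ccl4, also adjacent genes, had r = 0.801 (rho 0.740, adjusted permutation p = 0.00045) and 0.876, 0.423 and 0.457 within slides. Without the 2 arrays farthest from the median, r was 0.643 and 0.666.

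Ccl19 and Ccl21, the ligands of Ccr7, ran against each other, with r = -0.707 (rho -0.617, adjusted permutation p = 0.0051). Among the 6 animals at 60 mg/kg/day, the one with the highest Ccl19 (-0.40) had the lowest Ccl21 (1.64). At 20 mg/kg/day Ccl19 read -1.08, -0.21, -1.29, -2.24 and -0.77 where Ccl21 read 2.49, 1.81, 2.27, 2.72 and 1.52. Within the slides r was -0.605, -0.926 and -0.810. It was -0.617 without the 2 farthest arrays. Neither followed their receptor Ccr7, with r of -0.228 and 0.136.

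Il2rg and Il2rb, chains of the same receptors, had r = 0.682 (rho 0.708, adjusted permutation p = 0.0051) and 0.738, 0.860 and 0.623 within slides. The remaining 5 pairs were weaker. Ccl7 and Ccl2 had r of 0.593 and 0.567 with Ccr2, and 0.357 and 0.138 without their 2 farthest arrays. Those arrays were 0.06 mg/kg/day replicate 2 in both, with 20 mg/kg/day replicate 2 for Ccl7 and control replicate 5 for Ccl2. Ccr2 was above background on 19 of the 20 arrays, the exception being 0.06 mg/kg/day replicate 2. Leaving out the extremes of a gene also narrows its range, so the fall in r cannot show what these relations rested on. Cxcl10 and Cxcl9 had r of 0.564 and 0.547 with Cxcr3, and 0.525 and 0.279 without their 2 farthest arrays (adjusted permutation p = 0.13 and 0.49). Cxcl1 and Cxcl2, the latter above background on only 13 of the 20 arrays, had r = 0.587. Their r was 0.503 with an adjusted permutation p of 0.0879 without control replicate 1. Cxcl9 with Cxcr3 also missed the threshold without that array (r = 0.553, adjusted permutation p = 0.0528). Without their 2 farthest arrays 4 of the 9 pairs passed, Ccl2 with Ccl7, Ccl3 with Ccl4, Ccl19 with Ccl21 and Il2rg with Il2rb (adjusted permutation p = 0.047 for each). On deviations from dose means 4 passed, the first 3 of these and Cxcl1 with Cxcl2, while Il2rg with Il2rb was at the threshold (r = 0.597, adjusted permutation p = 0.05). Of the 9 pairs 7 also passed on deviations from slide means; Ccl2 with Ccr2 and Cxcl9 with Cxcr3 did not.

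Several pairs known to act together did not pass. Cxcl12 and Cxcr4 had r = -0.491 (rho -0.035, adjusted permutation p = 0.0921) and 0.052 without the 2 farthest arrays. On deviations from slide means that pair had r = -0.700 (adjusted permutation p = 0.0461), and without control replicate 1, where Cxcr4 was highest and Cxcl12 lowest, the pooled r was 0.062. Il33 and Il1rl1 had r = -0.070, Il1b and Il1rn 0.096, Il6r and Il6st 0.194 and Il18 and Il18r1 -0.153. Il18 and its inhibitor Il18bp had r = 0.447 (adjusted permutation p = 0.109).

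**Figure D3:**
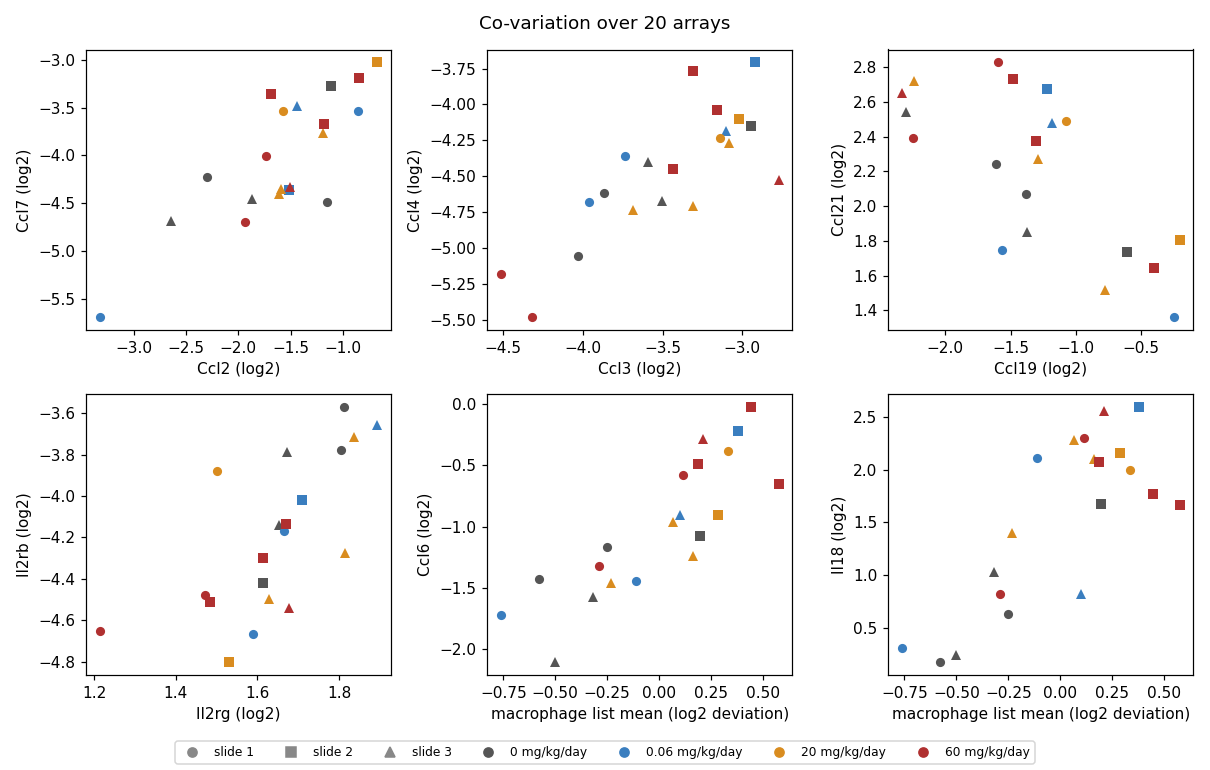
Levels of gene pairs (log2 signal minus log2 of the array's 75th percentile) and of Ccl6 and Il18 against the mean of the macrophage list (log2 deviation), 1 point per array, coloured by dose and shaped by slide. Ccl2 with Ccl7 (r = 0.807), Ccl3 with Ccl4 (0.801), Il2rg with Il2rb (0.682), and Ccl6 (0.841) and Il18 (0.788) with the macrophage list rise together, and Ccl19 with Ccl21 (-0.707) falls.

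The 76 genes were also set against the mean of 17 macrophage and of 11 T cell markers, none of them in the group, as 152 tests. With the macrophage list 9 genes passed 0.05 in the adjusted permutation test: Ccl6 (r = 0.841), Ccl7 (0.788), Il18 (0.788), Ccl12 (0.769), Ccl2 (0.644), Il4r (0.639), Ccl3 (0.619) and Ccl4 (0.619) above 0, and Il13ra1 (-0.642), a receptor chain of Il13, below 0. That was 10.5% of the genes above 0, where 6.05% of other genes had an r as large. Below 0 it was 1 of the 76 genes, a smaller share than the 4.52% of other genes. The median r was 0.09 over the group and -0.07 over other genes. On deviations from slide means Ccl6 (0.810), Il13ra1 (-0.826) and Il18 (0.756) passed, and Ccl12 (0.716, adjusted permutation p = 0.0502) and Ccl7 (0.679, 0.0567) did not. Within slide 2, with 6 arrays, Il18 had r = -0.187 and Ccl7 0.051, against 0.871 and 0.851 within slide 1. Without control replicate 1, Ccl3, Ccl4 and Il13ra1 no longer passed (adjusted permutation p = 0.11 for each), while Cxcr4 and the decoy receptor Il1r2 did. Without the 2 arrays farthest from the median of the list, control replicate 1 and 0.06 mg/kg/day replicate 2, only Ccl6 passed (r = 0.85), and Il18, Ccl7 and Ccl12 had r of 0.686, 0.692 and 0.719 with adjusted permutation p of 0.0714, 0.0714 and 0.0676. On deviations from dose means Ccl12, Ccl4, Ccl6, Ccl7 and Ccl3 passed, and Il18 (0.702, adjusted permutation p = 0.0898), Ccl2, Il4r and Il13ra1 did not. Il4r had a second probe that correlated with the first at r = 0.27, and the second Il13ra1 probe at 0.695.

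With the T cell list 3 genes passed in the permutation test: Ccl5 (r = 0.767, rho 0.704), Il2rb (0.640, rho 0.660) and Il16 (0.626, rho 0.513), a lymphocyte attractant. That was 3.95% of the genes, where 0.651% of other genes had an r as large above 0. On deviations from slide means Ccl5 (0.827) and Il2rb (0.750) passed, and Il16 (0.687) had an adjusted permutation p of 0.0502. The 2 arrays farthest from the median were 0.06 mg/kg/day replicates 1 and 5. Without them r was 0.610, 0.525 and 0.370, and 0 genes passed.

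Genes of the group also differed between slides. There 16 of the 76 genes (21.1%) were called by limma with dose in the fit, against 19.2% of all probes. The shares depended on the scaling, at 9.21% against 14.1% with quantile normalization and 10.5% against 14.7% with normexp and quantile normalization. They were Il20, Ccr7, Ccr1l1, Il12rb2, Il36rn, Il13, Ccl4, Il17c, Ccl3, Il11, Ccl24, Il20rb, Ccl22, Il1rap, Ccr9 and Il18r1. In 14 of them the mean was highest on slide 3, the exceptions being Ccl3 and Ccl4, which were highest on slide 2. Ccr7 averaged -6.53, -6.32 and -5.43 on slides 1, 2 and 3, and Il20, a keratinocyte cytokine, -6.04, -6.04 and -5.10. Ccl24 averaged 3.19, 3.24 and 3.43. Il13 and Il20rb were above background on only 5 and 8 arrays, and their highest values lay on slide 3. Their calls between slides may describe what the filter chose and are not read as a test.

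Among all 2850 pairs of the 76 genes, a family added after the data were seen, 93 passed 0.05 in the adjusted permutation test, 84 above 0 and 9 below. At that size of r, 0.659 or more, lay 3.05% of the pairs above 0 and 0.316% below, against 2.52% and 1.53% of all pairs of genes. In 54 of the 93 both genes were among the 16 called between slides, and some of these pairs held the dim Il13 or Il20rb. For Ccr7 and Il20 r went from 0.825 to -0.293 when slide means were taken off. On deviations from slide means 3 pairs passed. Il1b and Il2rb had r = 0.839, and 0.899, 0.951 and 0.775 within the slides. Ccl6 and Il36b had r = 0.833, and 0.869, 0.949 and 0.909 within the slides, but Il36b was not above background on 13 of the 20 arrays and passed the filter only through the 60 mg/kg/day group. Ccl6 and Il13ra1 had r = -0.667, and -0.791, -0.758 and -0.954 within the slides. The first joins a myeloid cytokine with a lymphocyte receptor chain, and the other two join Ccl6 with a dim IL-1 family ligand and with a receptor of Il13.

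**Figure D4:**
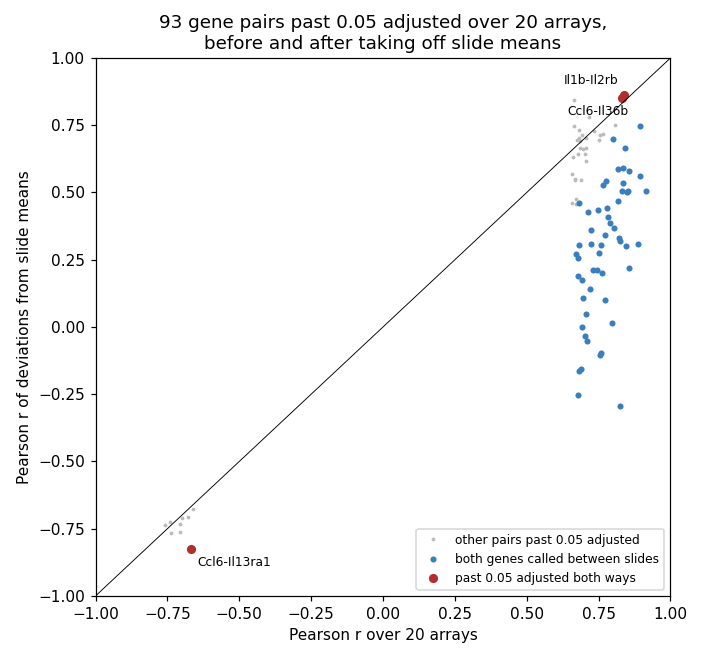
Pearson r over 20 arrays (horizontal) and on deviations from slide means (vertical) for the 93 of 2850 gene pairs that passed 0.05 in the adjusted permutation test; the line marks equal values. Pairs whose genes were both called between slides (54, blue) fall below the line, down to -0.293, while 3 red pairs passed both ways.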

How the data were processed

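The labels' doses gave the groups. The processed signal is a background-corrected spot intensity from Feature Extraction 11.5.1.1 (protocol GE1_1105_Oct12), per the file headers. A deposited log2 table carries values the authors processed from these arrays. Its deviations correlated with the scanner values at r of 0.946 to 0.991 and its column medians ran from -0.07 to 0.08, but how it was centred and normalized is unknown here. Transcript accessions named 18745 of 30367 probes through RefSeq on GRCr8, without versions; the array names build rn4, and coordinates are those of the RefSeq table. Values are log2 intensity minus log2 of the array's 75th percentile over non-control spots, with outlier spots left out and spots of a probe averaged. 0 spots were saturated. The number of arrays limits the precision.

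Group means were fitted to 23258 probes on 20 arrays with limma 3.58.1 (R 4.3.3), with trend and joint tests over the doses and a test between slides with dose as a term. Error terms are SE of that fit unless SD is named. Correlations used 100000 permutations (Python 3.11.15, scipy 1.17.1); those on slide or dose deviations permuted within slide or dose. Scripts were tested on simulated data. Members and lists were chosen with earlier results of these data known. Named genes were the 8 of smallest p per dose among well-measured ones and fixed genes of known axes. The 5 of widest spread and genes of pairs that passed were added. Other genes in the text fall outside these rules, such as those called between slides, those that followed a marker list, Il36b and list genes. The scan for values far from their group covered such genes only where they also met these rules. Alternatives were other normalizations, background correction, filters, slide and replicate blocks, the authors' values, the mean of a gene's probes and leaving out arrays. The planned normexp correction used median spot signals, since the files hold no mean signals. Replicate 4 at 0.06 mg/kg/day was not analysed here. 1 gene of the group entered the fits and counts but is not reported by name or drawn here.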

Additional observations from a re-analysis of the deposited data

Results flagged for a closer look

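Over 168 sets of values (42 of the named genes in 4 dose groups), 12 values from 8 arrays stood far from the rest of their group. The measure was the gap to the nearest value, and chance marks about 1 in 20 groups. 3 of the 12 came from 0.06 mg/kg/day replicate 1: Cxcl14 at 4.40 against 3.09 to 3.25 in the others, Cxcl1 at -3.28 against -4.34 to -4.20, and Il1b at -3.63 against -2.84 to -2.78. 3 came from 20 mg/kg/day replicate 4: Cxcl14 at 3.44 against 2.00 to 2.34, Il1rl1 at -2.89 against -4.42 to -4.03, and Il4r at -1.72 against -1.03 to -0.93. Ccr2 was apart in 0.06 mg/kg/day replicate 2, where it was not above background, at -7.42 against -5.81 to -5.78. It was also apart in control replicate 3, at -5.80 against -6.67 to -6.45. Ccr7 read -5.02 in 0.06 mg/kg/day replicate 5 against -6.46 to -6.28. Ccl9 read -4.55 in 20 mg/kg/day replicate 1 against -4.20 to -4.12. The dim receptor chains Il12rb1 and Il2ra read -4.30 in control replicate 5 against -7.90 to -7.05, and -4.62 in 60 mg/kg/day replicate 5 against -8.28 to -7.24.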

How the results depend on the processing

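Under all alternatives run, 0 genes of the group were called at any dose, over dose order or in the joint test, the replicate block included (0 called; the replicate numbers do not pair animals, with correlations of -0.31 to 0.35 between same-numbered arrays). The 24 dose differences of named genes kept their sign in all 671 alternative values. These genes were chosen for their small p in the same data, which favours a stable sign, so the count is no independent check. The alternatives did not use a gene's second probe alone. By its second probe Il18bp was at -0.15 at 20 mg/kg/day, against +0.37 by the brighter one. The second Ccl20 probe kept the sign of the first. The count called between slides, 16, was 7 with quantile normalization and 8 with normexp and quantile normalization (14.1% and 14.7% of all probes), and 13 to 18 when single arrays were left out. The 9 fixed pairs that passed became 4 on deviations from dose means, 4 without the 2 farthest arrays and 7 without control replicate 1. The 9 genes that followed the macrophage list became 3 on deviations from slide means, 5 on deviations from dose means, 14 with quantile normalization, 1 without the 2 farthest arrays and 8 without control replicate 1; the 3 that followed the T cell list became 0 without the 2 farthest arrays. Fewer arrays enter the tests that leave arrays out; the other causes were not tested. Medians of the group ranged from -0.08 to 0.04, 0.05 to 0.12 and -0.12 to -0.02 at the 3 doses when single arrays were left out. Dim probes such as Il13, Il20ra, Il12rb1 and Il36b are limited by their signal over background.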
